A study of Homo sapiens with 18 samples.

Results

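Cells make cholesterol from acetyl-CoA along the mevalonate pathway and the squalene and sterol steps that follow it. The genes examined were 8 members of that system, chosen by name with earlier results of these data known: ACAT2, HMGCS1, MVK and MVD of the mevalonate arm, SQLE, LSS and MSMO1 of the squalene and sterol arm, and INSIG1, which encodes a sterol-sensing regulator. Each was represented by 1 probe set carrying that symbol alone, among 18377 genes measured in all. The cells were A549, an established human line from a non-small cell lung cancer. One siRNA arm carried a non-targeting siRNA (siControl), and in the other both atypical protein kinases C, PKCiota and PKCzeta, were silenced (siPKCiz). Within an arm, cells went without TGFβ or met 250 pM of it during 1 h; the ligand was then removed by washing, and RNA was taken after another 7 h or 23 h in 0.2% serum, that is at 8 h and 24 h. Serum starvation and the low-serum medium stand in the protocol given for all arrays, the untreated ones included. Each of the 6 groups had 3 arrays that the labels call biological replicates, and the growth medium of all cells held 10% serum. The untreated arrays carry no time in the labels, so an effect of TGFβ and one of time in low serum cannot be told apart.

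Most enzymes of this pathway are transcribed under the SREBP transcription factors. When membrane sterols are ample, INSIG proteins hold SCAP and its bound SREBP precursor in the endoplasmic reticulum; when sterols fall, SCAP carries SREBP to the Golgi, where proteases release its active part. SREBPs bind sterol regulatory elements, commonly beside NF-Y, which binds the CCAAT box. In lung epithelium the same lipid programs supply membranes and surfactant.

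The DNA ahead of the start sites is shown because the enzymes of this pathway are known for shared control at such elements. RefSeq records on GRCh38.p14 covered 6 of the 8 genes, all but ACAT2 and SQLE. In the 250 bases before the start, searched on both strands, the core letters TCACNCCA of a sterol regulatory element were present in 2 of these 6 genes, MVK and MSMO1, and in 3.2% of all 35116 records. CCAAT was present in all 6 of the genes and in 32% of records. Over the 15 enzyme genes of both arms that had a record, 12 held CCAAT and 2 held the element core. Below, 3 upstream stretches are printed 5′ to 3′ on the strand of the gene, with capitals marking CCAAT, its reverse complement ATTGG and the element core; the motif matches did not overlap one another. MVD (chr16:88663092-88663341, minus strand) had 3 CCAAT matches, HMGCS1 (chr5:43313413-43313662, minus strand) had 2, and MSMO1 (chr4:165327419-165327668, plus strand) had 4 and an element core that began 156 bases before the start. No annotated gene lay within these windows. The fourth sequence is the 30-base stretch around the MVK element (chr12:109573588-109573617, plus strand), which lies 195 bases before the start of the record and inside the annotated MVK gene.
MVD: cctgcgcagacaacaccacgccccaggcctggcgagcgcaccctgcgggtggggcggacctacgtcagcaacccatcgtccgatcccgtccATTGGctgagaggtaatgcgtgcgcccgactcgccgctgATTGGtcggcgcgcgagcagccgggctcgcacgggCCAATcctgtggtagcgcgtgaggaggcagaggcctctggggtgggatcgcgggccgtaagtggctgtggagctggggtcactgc
HMGCS1: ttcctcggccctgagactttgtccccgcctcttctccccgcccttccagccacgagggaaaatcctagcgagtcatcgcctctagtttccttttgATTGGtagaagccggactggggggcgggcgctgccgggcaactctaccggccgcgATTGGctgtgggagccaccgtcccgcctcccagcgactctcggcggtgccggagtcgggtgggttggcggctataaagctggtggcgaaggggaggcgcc
MSMO1: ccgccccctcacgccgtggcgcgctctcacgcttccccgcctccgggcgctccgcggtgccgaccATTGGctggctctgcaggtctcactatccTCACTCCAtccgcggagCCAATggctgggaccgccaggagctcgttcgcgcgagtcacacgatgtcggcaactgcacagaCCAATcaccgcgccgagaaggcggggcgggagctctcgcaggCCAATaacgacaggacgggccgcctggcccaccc
MVK: gttcgcagttcTCACCCCAgggcgggacac
A match describes letters and is no evidence that a factor binds there. MVK and its neighbour MMAB, which encodes a cobalamin adenosyltransferase, start close together on opposite strands, and the MVK element core lies 102 bases before the MMAB start.

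In each condition, every siPKCiz array read below every siControl array for both silenced genes. For PRKCI, the PKCiota gene, the siPKCiz minus siControl difference without TGFβ was -2.17 ± 0.09 (SE) on the log2 scale, or 4.49-fold lower. At 8 h the PRKCI change was -2.22 and at 24 h it was -2.34. PRKCZ, which encodes PKCzeta, changed by -1.07, -1.04 and -1.10 in the same order, each ± 0.24, and both genes were called in all 3 conditions. The arms were closest for PRKCZ on the arrays numbered 1: 8.05, 8.27 and 8.24 in siControl and 7.92, 7.99 and 7.68 in siPKCiz, untreated, at 8 h and at 24 h. On the other arrays PRKCZ lay between 8.64 and 8.94 in siControl and between 7.15 and 7.56 in siPKCiz. All 5 epithelial markers (EPCAM, KRT8, KRT18, KRT19 and CDH1) had means above the array median of all 28869 probe sets in every group. That held for 1 of 5 measured leukocyte markers (CD68), 0 of 5 endothelial and 0 of 3 hepatocyte-type markers. Of the 5 fibroblast markers, 0 to 2 stood above that median by group. The probe-set median lies below the median gene: it was at most 7.33 on the log2 scale. LUM, averaging 7.91 over all arrays, exceeded only 48.4% of genes. Array medians lay between 156.1 and 160.7 intensity units after the authors' RMA, which sets arrays to a common scale. Throughout, a gene is called at a limma adjusted p (Benjamini-Hochberg over 18377 genes) under 0.05, values are log2 intensity, and each ± on a change is its standard error.

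In siControl cells, sterol genes fell at 8 h of TGFβ: 6 of the 8 were called lower and 0 higher, against 6.18% of all genes called lower. The largest fall was that of MVK (-0.66, or 1.58-fold), followed by MVD, ACAT2, LSS, HMGCS1 and INSIG1 (-0.30, or 1.23-fold). MSMO1 and SQLE did not pass the test. The median change of the 8 was -0.44, against 0.002 for all genes. In the same 6 genes the 8 h arrays did not overlap the untreated ones, which held for 12.9% of all genes in that direction. By 24 h ACAT2 and MVD were still called lower, 2 of 8 against 6.46% of all genes, and the median change was -0.22. At that time 3 of the 8 had treated arrays wholly below the untreated ones, which 13.6% of all genes had. In bulk RNA, fewer cells with a transcript and less transcript per cell cannot be told apart.

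**Figure D1:**
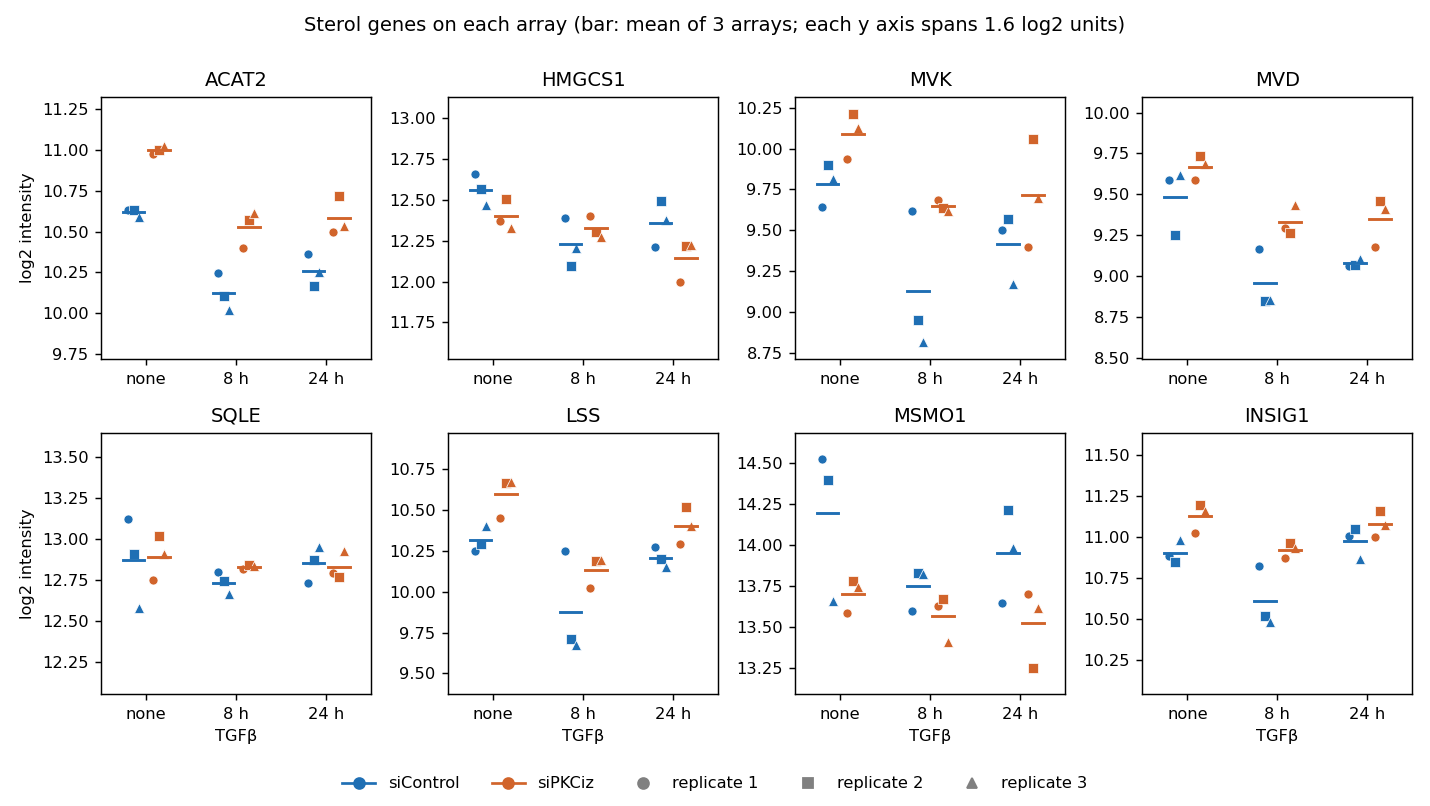
Log2 intensity of each of the 8 genes on every array, by TGFβ condition (horizontal axis) and siRNA arm (colour); marker shapes give the replicate number and bars the mean of 3 arrays. Each vertical axis spans 1.6 log2 units. In siControl at 8 h, replicate 1 lies above the other two arrays for each gene but MSMO1, and MSMO1 is highest on replicates 1 and 2 of untreated siControl.

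ACAT2, whose thiolase joins acetyl-CoA units at the entry of the pathway, had the smallest standard error of the 8 genes. In siControl it read 10.63, 10.63 and 10.59 untreated, 10.25, 10.11 and 10.02 at 8 h, and 10.36, 10.17 and 10.25 at 24 h. In siPKCiz it read 10.97, 11.0002 and 11.02 untreated, 10.40, 10.57 and 10.61 at 8 h, and 10.50, 10.72 and 10.53 at 24 h. Every treated array lay below every untreated array of its arm, and every siPKCiz array lay above every siControl array of the same condition. The change in siControl was -0.49 ± 0.08 at 8 h (adjusted p = 0.000616) and -0.36 ± 0.08 at 24 h (adjusted p = 0.00692). In siPKCiz it was -0.47 ± 0.08 at 8 h (adjusted p = 0.00161) and -0.42 ± 0.08 at 24 h (adjusted p = 0.00269). From high to low the group means ran from untreated siPKCiz (10.997 ± 0.02, SD, n = 3) to siControl at 8 h (10.13 ± 0.11). Untreated siControl, siPKCiz at 24 h and siPKCiz at 8 h (10.62, 10.58 and 10.53) followed each other by less than their spread. The annotated ACAT2 gene overlaps TCP1 and SOD2, and which bases its probes cover was not analysed here.

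HMGCS1 encodes the cytosolic HMG-CoA synthase, the step after ACAT2. Its siControl arrays read 12.66, 12.56 and 12.46 untreated, 12.39, 12.09 and 12.20 at 8 h, and 12.21, 12.49 and 12.38 at 24 h. The siPKCiz arrays read 12.37, 12.51 and 12.32 untreated, 12.40, 12.30 and 12.27 at 8 h, and 11.99, 12.22 and 12.23 at 24 h. In siControl the 8 h arrays lay below all untreated ones and the 24 h arrays overlapped them, whereas in siPKCiz the 24 h arrays were the ones that lay apart. The fall at 8 h in siControl was called (-0.33 ± 0.10, adjusted p = 0.0285), and that call was lost without any 1 of 4 of the 6 arrays compared (untreated replicate 1 or 2, 8 h replicate 2 or 3), where the change ranged from -0.27 to -0.33. The other values were -0.20 ± 0.10 at 24 h in siControl (adjusted p = 0.209), -0.08 ± 0.10 at 8 h in siPKCiz (adjusted p = 0.774) and -0.26 ± 0.10 at 24 h in siPKCiz (adjusted p = 0.103).

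MVK, mevalonate kinase, had the largest change of the 8 genes in siControl at 8 h and also some of the widest spread. Its siControl arrays read 9.64, 9.90 and 9.82 untreated, 9.62, 8.95 and 8.82 at 8 h, and 9.50, 9.57 and 9.17 at 24 h. The siPKCiz arrays read 9.94, 10.21 and 10.12 untreated, 9.69, 9.64 and 9.62 at 8 h, and 9.40, 10.06 and 9.70 at 24 h. Replicate 1 of siControl at 8 h was just below the lowest untreated array, and the other two were clearly lower. The siControl change at 8 h was -0.66 ± 0.18 (95% interval -1.03 to -0.29, adjusted p = 0.0186), and with 1 replicate number of all groups left out it was -0.97 ± 0.13 (replicate 1), -0.51 ± 0.22 (replicate 2, adjusted p = 0.280) and -0.48 ± 0.23 (replicate 3, adjusted p = 0.295). The call was lost without any 1 of untreated replicates 2 and 3 and 8 h replicates 2 and 3, where the change ranged from -0.50 to -0.64. The change was -0.37 ± 0.18 at 24 h in siControl (adjusted p = 0.208), -0.44 ± 0.18 at 8 h in siPKCiz (adjusted p = 0.169) and -0.37 ± 0.18 at 24 h in siPKCiz (adjusted p = 0.207). MMAB, on the other strand of the same start region and looked up after the values of MVK were seen, was called lower in all 4 of these comparisons, with changes of -0.27, -0.35, -0.45 and -0.49 in the same order, each ± 0.08.

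MVD encodes the decarboxylase that closes the mevalonate arm by making isopentenyl diphosphate. In siControl it read 9.59, 9.25 and 9.62 untreated, 9.16, 8.85 and 8.85 at 8 h, and 9.06, 9.07 and 9.11 at 24 h. In siPKCiz it read 9.58, 9.74 and 9.68 untreated, 9.29, 9.27 and 9.43 at 8 h, and 9.18, 9.46 and 9.41 at 24 h. Treated and untreated arrays of an arm did not overlap at either time. The changes in siControl were -0.53 ± 0.11 at 8 h (adjusted p = 0.00256) and -0.41 ± 0.11 at 24 h (adjusted p = 0.0159). The call at 24 h was lost without untreated replicate 1 or 3 or 24 h replicate 2, with changes from -0.34 to -0.40. In siPKCiz the changes of -0.34 ± 0.11 (adjusted p = 0.0708) and -0.32 ± 0.11 (adjusted p = 0.0664) missed the threshold.

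SQLE, squalene epoxidase, takes the first oxygenation step of the sterol arm, and LSS, lanosterol synthase, closes the ring system after it. SQLE read 13.12, 12.91 and 12.58 in untreated siControl, 12.80, 12.74 and 12.66 at 8 h, and 12.73, 12.87 and 12.95 at 24 h. Its siPKCiz arrays read 12.75, 13.02 and 12.90 untreated, 12.81, 12.84 and 12.83 at 8 h, and 12.79, 12.76 and 12.93 at 24 h. All 6 SQLE group means lay between 12.73 and 12.89, with the single untreated siControl arrays further apart than any group means. The SQLE change of largest size was -0.14 ± 0.11, at 8 h in siControl (95% interval -0.36 to 0.09, adjusted p = 0.526).

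LSS read 10.25, 10.29 and 10.40 in untreated siControl, 10.25, 9.71 and 9.67 at 8 h, and 10.27, 10.20 and 10.15 at 24 h. In siPKCiz the arrays read 10.45, 10.66 and 10.67 untreated, 10.02, 10.19 and 10.19 at 8 h, and 10.29, 10.52 and 10.40 at 24 h. The fall at 8 h was -0.44 ± 0.12 in siControl (adjusted p = 0.0217) and -0.46 ± 0.12 in siPKCiz (adjusted p = 0.0241). At 24 h the LSS changes were -0.11 ± 0.12 (adjusted p = 0.671) and -0.19 ± 0.12 (adjusted p = 0.365), with overlapping arrays in both arms. In siControl, replicate 1 at 8 h sat at the level of the untreated arrays, and with replicate 1 of all groups left out the change was -0.65 ± 0.08. It was -0.37 ± 0.17 without replicate 2 (adjusted p = 0.326) and -0.29 ± 0.16 without replicate 3 (adjusted p = 0.384). The siControl call was lost without untreated replicate 2 or 3 or 8 h replicate 2 or 3 (changes from -0.33 to -0.45). The siPKCiz call was lost without untreated replicate 2 or 3 or 8 h replicate 1 or 2 (changes from -0.40 to -0.49).

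MSMO1 encodes the methylsterol monooxygenase that starts removal of methyl groups from the sterol ring. It read 14.53, 14.40 and 13.66 in untreated siControl, 13.60, 13.83 and 13.82 at 8 h, and 13.65, 14.21 and 13.98 at 24 h. In siPKCiz it read 13.58, 13.78 and 13.74 untreated, 13.63, 13.67 and 13.41 at 8 h, and 13.70, 13.25 and 13.62 at 24 h. Untreated siControl had the highest mean, 14.19 ± 0.47 (SD, n = 3), and its replicate 3 fell among the arrays of the other groups. The change at 8 h in siControl was of the size of that of LSS with a larger error, -0.44 ± 0.18 (adjusted p = 0.142). It was -0.24 ± 0.18 at 24 h in siControl, -0.13 ± 0.18 at 8 h in siPKCiz and -0.18 ± 0.18 at 24 h in siPKCiz, none of them called.

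INSIG1, the retention partner of SCAP and itself a well-known SREBP target, read close to its untreated level again at 24 h. Its siControl arrays read 10.88, 10.85 and 10.98 untreated, 10.82, 10.52 and 10.48 at 8 h, and 11.01, 11.05 and 10.87 at 24 h. The siPKCiz arrays read 11.03, 11.19 and 11.16 untreated, 10.87, 10.96 and 10.93 at 8 h, and 10.9998, 11.16 and 11.08 at 24 h. In siControl the 8 h arrays lay below both other groups, which overlapped each other. The change at 8 h was -0.30 ± 0.09 (adjusted p = 0.0370) and that at 24 h was 0.07 ± 0.09 (adjusted p = 0.719). The call at 8 h was lost without any 1 of untreated replicates 1 to 3 or 8 h replicates 2 and 3 (changes from -0.24 to -0.33). In siPKCiz the changes were -0.20 ± 0.09 at 8 h (adjusted p = 0.228) and -0.05 ± 0.09 at 24 h (adjusted p = 0.801).

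**Figure D2:**
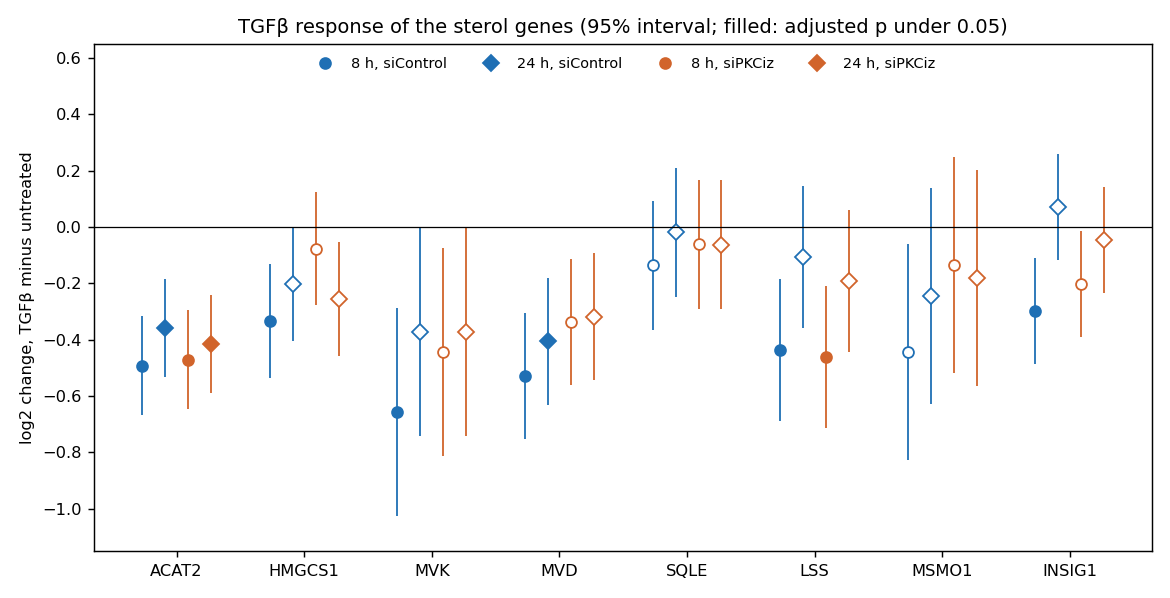
Log2 change of each of the 8 genes on TGFβ against the untreated arrays of the same arm, with 95% intervals from the fit; filled symbols have an adjusted p under 0.05. All 6 filled symbols for siControl at 8 h lie below 0, and those of ACAT2 are filled in all 4 comparisons.

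Replicate 1 of siControl at 8 h stood apart for these genes: 7 of the 8 were above their group mean on it, by 0.18 log2 units on average over the 8, while over all genes it was 0.01 above. Without the 6 arrays numbered 1, 6 members were still called lower at 8 h. Without those numbered 2 the count was 2 (MVD and ACAT2). Without those numbered 3 all 6 of these calls were lost, and the 1 gene called was MSMO1 (-0.75 ± 0.19), which the fit of all arrays did not call. Leaving out single arrays gave 2 to 6 calls, with 2 each without untreated replicate 2, 8 h replicate 2 and 8 h replicate 3. At 24 h the siControl count of 2 became 1 without the arrays numbered 2, without untreated replicate 1 alone and without 24 h replicate 2 alone, and 0 without the arrays numbered 3.

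The siPKCiz arm showed fewer calls in this response. At 8 h, ACAT2 and LSS were called lower, 2 of 8 against 3.35% of all genes, and at 24 h ACAT2 alone was, 1 of 8 against 6.09%. The median change of the 8 was -0.27 at 8 h and -0.22 at 24 h. Arrays of the treated group lay wholly below the untreated ones for 5 members at 8 h (13% of all genes) and for 3 at 24 h (18.2%). The count of 2 at 8 h became 0 without the arrays numbered 2 or those numbered 3, and 1 without untreated replicate 2 or 3 or 8 h replicate 1 or 2 alone. The count of 1 at 24 h became 0 without the arrays numbered 3 and 2 without siControl untreated replicate 2 or siControl 8 h replicate 1, each of which enters through the shared spread.

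Whether the arms responded differently was tested directly by the interaction of siRNA and TGFβ. By limma, 0 of the 8 genes and 0 of 18377 genes (0%) were called at either time. At an unadjusted p under 0.05, 0 of the 8 genes passed at 8 h and 0 at 24 h, and of all genes 625 (3.4%) and 705 (3.84%) did. At 8 h the difference in response, siPKCiz minus siControl, ran from -0.02 ± 0.17 for LSS to 0.31 ± 0.26 for MSMO1. HMGCS1, called in siControl and not in siPKCiz, had a difference of 0.26 ± 0.14 with a 95% interval of -0.03 to 0.54. For MVK the difference was 0.21 ± 0.25 (-0.31 to 0.73), for MVD 0.19 ± 0.15 (-0.12 to 0.51) and for ACAT2 0.02 ± 0.12 (-0.23 to 0.27). At 24 h it ran from -0.12 ± 0.13 for INSIG1 to 0.09 ± 0.15 for MVD. The calls made in one arm and missed in the other were therefore not shown to differ between arms, and the 95% intervals at 8 h reached beyond the size of the siControl fall for MVK, MSMO1, HMGCS1 (0.54 against a change of -0.33), INSIG1 (0.36 against -0.30) and SQLE (0.40 against -0.14).

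Between 8 h and 24 h, INSIG1 in siControl was the 1 member called, higher by 0.37 ± 0.09 (1.29-fold, adjusted p = 0.0363), against 1.31% of all genes called higher. All 3 of its 24 h arrays lay above all 3 of its 8 h arrays. This call was lost without 8 h replicate 2 or 3, 24 h replicate 1 or 2, or siPKCiz untreated replicate 3 (changes from 0.31 to 0.37). Without 8 h replicate 1, 2 members were called. The other 7 changes in siControl were all above 0, from 0.12 for SQLE to 0.33 ± 0.12 for LSS (adjusted p = 0.199). In siPKCiz, limma called 0 of 8 members between the times, against 0.805% of all genes, and 1 member (LSS, 0.27 ± 0.12) passed an unadjusted p of 0.05. HMGCS1 there changed by -0.18 ± 0.10 (adjusted p = 0.475).

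Silencing PKCiota and PKCzeta went with higher ACAT2 in every condition. ACAT2 was higher in siPKCiz by 0.38 ± 0.08 without TGFβ (adjusted p = 0.0153), by 0.40 ± 0.08 at 8 h (adjusted p = 0.0100) and by 0.32 ± 0.08 at 24 h (adjusted p = 0.0402), which is 1.25-fold to 1.32-fold. At 8 h MVD (0.37 ± 0.11, adjusted p = 0.0480) and INSIG1 (0.32 ± 0.09, adjusted p = 0.0475) were called higher as well. The counts of members called higher were 1 of 8 without TGFβ (2.12% of all genes), 3 of 8 at 8 h (3.52%) and 1 of 8 at 24 h (1.51%), and 0 were called lower in any of the 3. MVK differed by 0.30, 0.52 and 0.30 in the order untreated, 8 h and 24 h, each ± 0.18, and LSS by 0.28, 0.26 and 0.20, each ± 0.12, with no call. MSMO1 lay on the other side, at -0.49, -0.18 and -0.43, each ± 0.18, and was not called in any single condition. The counts rested on few arrays: without the arrays numbered 2, and without those numbered 3, each was 0, and without those numbered 1 they were 2, 5 and 5 (called in either direction). The 8 h count ranged from 0 to 5 when single arrays were left out, with 5 without siControl 8 h replicate 1 and 0 without siControl 8 h replicate 3, siPKCiz 8 h replicate 2 or siPKCiz 8 h replicate 3. It was 1 without siControl 8 h replicate 2, siControl 24 h replicate 2, siPKCiz 8 h replicate 1, or replicate 2 or 3 of untreated or 24 h siPKCiz. MVD lost its 8 h call without any 1 of 12 of the 18 arrays (0.32 to 0.41) and INSIG1 without any 1 of 13 (0.25 to 0.34). The ACAT2 call without TGFβ was lost without siControl untreated replicate 3 or siPKCiz untreated replicate 2 or 3, with changes from 0.36 to 0.38. Its 8 h call was lost without siControl 8 h replicate 3 or siPKCiz 8 h replicate 2 or 3 (0.35 to 0.38). Its 24 h call was lost without replicate 2 or 3 of either 24 h group or of untreated siPKCiz, or replicate 2 of any other group (0.25 to 0.35).

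**Figure D3:**
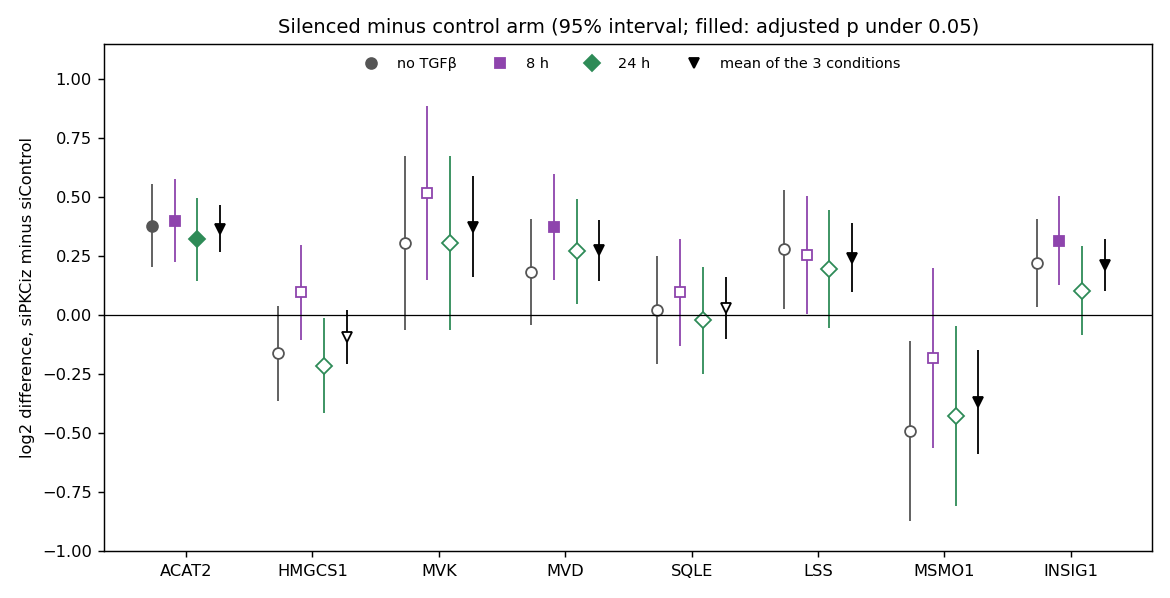
Log2 difference between the arms, siPKCiz minus siControl, for each of the 8 genes without TGFβ, at 8 h, at 24 h and as the mean of the 3 conditions, with 95% intervals; filled symbols have an adjusted p under 0.05. ACAT2 is filled in each condition, and the 3 values for MSMO1 lie below 0.

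As the mean of the 3 conditions, a comparison added after the values were seen, the silenced arm differed for 6 of the 8 genes, against 19.9% of all genes called. ACAT2 (0.37 ± 0.05, adjusted p = 3.5e-05), MVK (0.38 ± 0.10, adjusted p = 0.0135), MVD (0.28 ± 0.06, adjusted p = 0.00377), LSS (0.24 ± 0.07, adjusted p = 0.0180) and INSIG1 (0.21 ± 0.05, adjusted p = 0.00672) were higher, 5 of 8 against 11.8% of genes. MSMO1 was lower (-0.37 ± 0.10, adjusted p = 0.0190), 1 of 8 against 8.17%. HMGCS1 (-0.09 ± 0.06, adjusted p = 0.257) and SQLE (0.03 ± 0.06, adjusted p = 0.760) were not called. The count stayed at 6 without any single array, and was 1 without the arrays numbered 2 (ACAT2) and 2 without those numbered 3 (ACAT2 and MSMO1). Between the arrays numbered 1 alone, the mean difference over the 3 conditions was smaller for ACAT2 (0.21), MVK (0.09), MVD (0.08), INSIG1 (0.06) and LSS (-0.00480). In the called values the arms did not differ in one direction across the pathway, and the 2 directions met within the squalene and sterol arm, where LSS was higher and MSMO1 lower.

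Both arms of the pathway were covered by lists chosen with earlier results known, and 17 of their 21 enzyme genes were measured; the others were not analysed here. Over all genes, the shares called lower were 6.18% at 8 h and 6.46% at 24 h in siControl, and 3.35% and 6.09% in siPKCiz. In the mevalonate arm 5 of 7 genes were called lower in siControl at 8 h, the fifth being FDPS, farnesyl diphosphate synthase (-0.32 ± 0.07, adjusted p = 0.00579). The counts were 2 at 24 h, and 1 at each time in siPKCiz. PMVK, phosphomevalonate kinase, which acts between MVK and MVD, changed by -0.07 ± 0.07 at 8 h (adjusted p = 0.635), and IDI1, isopentenyl diphosphate isomerase, by -0.20 ± 0.11 (adjusted p = 0.285). In the squalene and sterol arm 4 of 10 were called lower in siControl at 8 h, 3 at 24 h, and 3 and 2 in siPKCiz. TM7SF2, a sterol reductase acting on the ring after LSS, fell in all 4 comparisons, by 0.64, 0.59, 0.64 and 0.74 on the log2 scale in the order siControl 8 h and 24 h, siPKCiz 8 h and 24 h, each ± 0.10. EBP, the sterol isomerase, fell by 0.43, 0.34, 0.41 and 0.34, each ± 0.07. DHCR7, the reductase of the last step to cholesterol, was lower in siControl by 0.30 ± 0.08 at 8 h (adjusted p = 0.0164) and by 0.25 ± 0.08 at 24 h (adjusted p = 0.0424). CYP51A1, lanosterol demethylase, changed by -0.09 ± 0.11 at 8 h in siControl (adjusted p = 0.730). No gene of either arm was called higher on TGFβ. The list medians in siControl at 8 h were -0.33 and -0.27, and all 7 measured genes of the mevalonate arm were below 0 in each of the 4 comparisons.

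**Figure D4:**
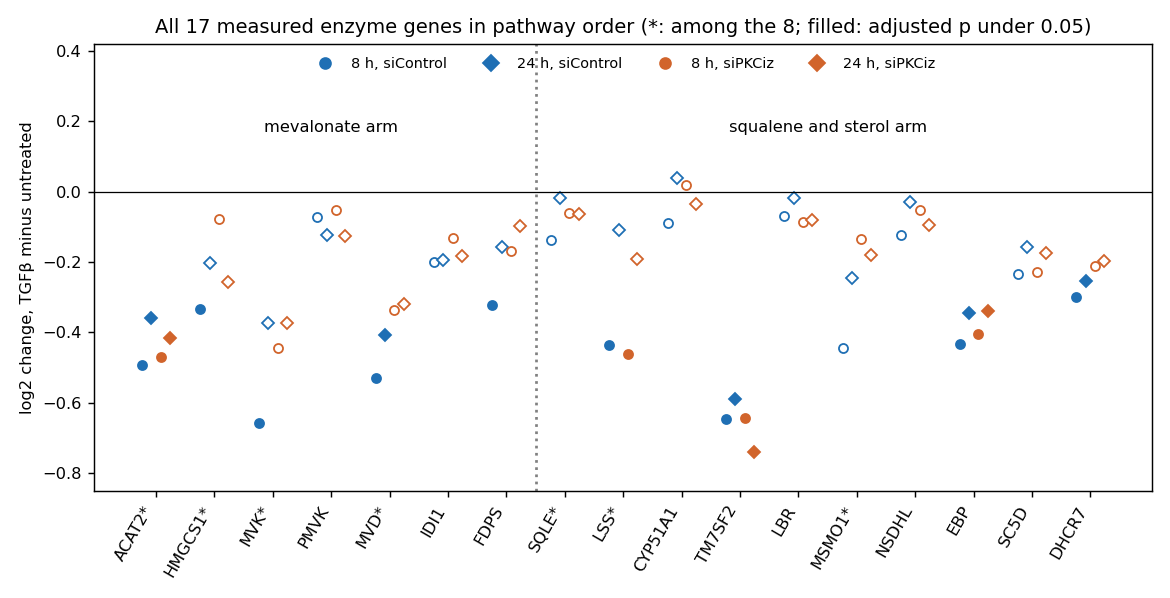
Log2 change on TGFβ against untreated for all 17 measured enzyme genes in pathway order, in both arms and at both times; asterisks mark the 7 enzymes among the 8 genes described, and filled symbols have an adjusted p under 0.05. TM7SF2, EBP and ACAT2 are filled and below 0 in all 4 comparisons, while PMVK and CYP51A1 stay within 0.13 log2 units of 0.

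Among the regulators, SREBF1, which encodes the SREBP1 precursor, fell in all 4 comparisons. Its changes were -0.62 ± 0.08 (adjusted p = 6.85e-05) and -0.39 ± 0.08 (adjusted p = 0.00308) in siControl, and -0.46 ± 0.08 (adjusted p = 0.00163) and -0.38 ± 0.08 (adjusted p = 0.00464) in siPKCiz. SREBF2, encoding SREBP2, changed by -0.18 ± 0.08 at 8 h in siControl (adjusted p = 0.141), SCAP by -0.28 ± 0.09 (adjusted p = 0.0592) and INSIG2 by -0.17 ± 0.12 (adjusted p = 0.424), and none of these 3 was called in any comparison. Of 10 measured regulators, INSIG1 included, 2 were called lower at 8 h and 2 at 24 h in siControl (MBTPS2, the site-2 protease gene, by 0.25 ± 0.08 at 24 h, adjusted p = 0.0411), and 1 at each time in siPKCiz, where 3.35% and 6.09% of all genes were called lower; the siControl shares were 6.18% and 6.46%. SPRING1, whose product supports SREBP processing, was higher in siPKCiz by 0.50, 0.42 and 0.45 in the 3 conditions, each ± 0.11, and SREBF1 was higher by 0.36 ± 0.08 at 8 h (adjusted p = 0.0176).

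The fatty acid genes under SREBP1 gave 4 of 12 called lower in siControl at 8 h (6.18% of all genes): ELOVL6, a fatty acid elongase (-0.81 ± 0.12), ACSS2, which makes acetyl-CoA from acetate (-0.77 ± 0.12), LPIN1, a phosphatidate phosphatase (-0.37 ± 0.09), and ACACA, acetyl-CoA carboxylase (-0.29 ± 0.07). At 24 h 2 were called lower (ELOVL6 and ACSS2), against 6.46% of all genes. The 1 called higher was GPAM, a glycerol phosphate acyltransferase (0.49 ± 0.10). The share of all genes called higher on TGFβ is not given here. In siPKCiz 3 were called lower at each time (3.35% and 6.09% of all genes), ELOVL6, ACSS2 and ME1, the cytosolic malic enzyme (-0.30 ± 0.08 and -0.31 ± 0.08). Between the arms at 8 h, LPIN1 (0.60 ± 0.09), FASN, fatty acid synthase (0.48 ± 0.11), and ACACA (0.46 ± 0.07) were called higher in siPKCiz. Of all genes 3.52% were called higher in that comparison. Without TGFβ, 2 of the 12 were called higher in siPKCiz (2.12% of all genes). LPIN1 then averaged 11.27 in siPKCiz and 10.93 in siControl, and ACACA 10.59 and 10.27. As the mean of the 3 conditions, 4 of the 12 were called higher (11.8% of all genes) and 1 lower (8.17%). At 24 h ELOVL6 was called lower in siPKCiz (-0.49 ± 0.12).

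The other sterol lists had counts of called genes to be read against 6.18% of all genes called lower at 8 h and 6.46% at 24 h in siControl, and 3.35% and 6.09% in siPKCiz. For uptake and transport, 1 of 7 genes was called lower in siControl at 8 h, TMEM97, a sterol-regulated membrane protein (-0.43 ± 0.11, adjusted p = 0.0150), which was also lower at 24 h (-0.51 ± 0.11, adjusted p = 0.00430). NPC2, which hands cholesterol on in lysosomes, was higher at 24 h in siControl (0.35 ± 0.08) and in siPKCiz (0.38 ± 0.08). For these rises too, the share of all genes called higher on TGFβ is not given here. NPC1, the membrane partner of NPC2, was higher in siPKCiz than in siControl at 8 h (0.42 ± 0.10, adjusted p = 0.0151). Of 8 LXR and efflux genes 1 was called lower at 8 h in each arm, MYLIP, an LXR-induced ubiquitin ligase (-0.46 ± 0.14 and -0.71 ± 0.14). LPCAT3, a lysophospholipid acyltransferase, was lower in siPKCiz than in siControl at 8 h (-1.28 ± 0.31, adjusted p = 0.0238). Its differences of -1.10 untreated and -1.06 at 24 h were of similar size and were not called. The SD within its groups ran from 0.32 to 0.60. The isoprenoid branch, which leads from farnesyl diphosphate to prenyl groups, dolichol and ubiquinone, had 0 of 11 genes called on TGFβ in siControl at either time and 2 lower in siPKCiz at 24 h (COQ2 and RABGGTA). Of 8 storage and oxidation genes, NCEH1, a cholesteryl ester hydrolase, was lower by 0.56 ± 0.12 in siControl at both times and in siPKCiz at 24 h, and SOAT1, which esterifies cholesterol, was lower by 0.36 ± 0.10 in siControl at 8 h.

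Markers of cell state moved with the same treatments. CDH1, the epithelial cadherin, changed by -0.96 ± 0.17 at 8 h and by -1.62 ± 0.17 at 24 h in siControl, and its siPKCiz changes were -0.77 ± 0.17 and -1.37 ± 0.17. Of the 5 epithelial markers, 2 were called lower at 8 h and 3 at 24 h in siControl (6.18% and 6.46% of all genes). In siPKCiz 2 were called lower at each time (3.35% and 6.09% of all genes). The summed intensity of the 5 epithelial markers lay between 12656 and 14213 in untreated siControl, 12054 and 12371 at 8 h, and 9854 and 12101 at 24 h. In siPKCiz it lay between 13760 and 14491 untreated, 13673 and 15269 at 8 h, and 11132 and 12438 at 24 h, so the 8 h and untreated ranges overlapped there. KRT8 and KRT18 made up most of this sum, with geometric means of 7899 and 3109 intensity units in untreated siControl. In siPKCiz KRT8 averaged 12.97 untreated and 13.10 at 8 h on the log2 scale, so the sum says little of the dimmer markers. Between the arms, 1 of the 5 epithelial markers was called higher in siPKCiz at 24 h (EPCAM, 1.20 ± 0.27), against 1.51% of all genes. As the mean of the 3 conditions, 3 of 5 were called higher, against 11.8% of all genes, with a median difference of 0.25 over the 5. Summed over the 5 fibroblast markers, the 8 h siControl arrays (586 to 613) lay within the untreated range (559 to 616), and those at 24 h were higher (828 to 874), with LUM up by 1.28 ± 0.14. In siPKCiz the fibroblast sums were 661 to 696, 607 to 718 and 933 to 1007 in the same order. The part of these markers in the sterol gene values was not tested.

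Over the 6 groups, the mean of the 8 centred profiles was highest in untreated siPKCiz (0.23 above the mean over groups) and untreated siControl (0.14), and lowest in siControl at 8 h (-0.27). The 5 genes outside the lists whose 6 group means came closest to it were TBC1D17, ZFAND6, SAMD13, SLC35A1 and CC2D2A, at root mean square differences of 0.015 to 0.025 log2 units. Of the 8, MVD (0.10) and LSS (0.10) lay closest to their own common profile and MSMO1 (0.25) farthest from it, further than 84.9% of all genes. For MVD 4.76% of all genes lay nearer to it, for LSS 4.84%, for ACAT2 19.3% and for MVK 24.3%. The 8 make up this profile, so their closeness to it is partly built in.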

How the data were processed

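Gene expression was measured on 18 Affymetrix whole-transcript arrays, 3 per group, from 200 ng of RNA each. The authors' deposited values are intensity on a linear scale; per the submitters' processing notes, RMA and Partek were used, with versions not given in the sources used here. Log2 was taken once, with no further normalization. Of 28869 probe sets, 19310 carried 1 symbol in the probe table; the brightest stood for a gene, giving 18377 genes.

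The model, fitted in limma 3.58.1 (R 4.3.3), had a mean for each of the 6 groups and took the spread from all arrays, with moderated variances (12 residual and 18.1 total degrees of freedom). It gave 11 comparisons and 1 added later. Calls were made under 0.05 after Benjamini-Hochberg adjustment within a comparison. The fit was tested on simulated data. Arrays have no read depth; their number limits the precision (median standard error 0.10 log2 units). P-values measure the spread between the samples labelled as biological replicates.

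The members and lists were chosen with earlier results of these data known. The text names the members, the silenced genes, SREBF2, SREBF1, SCAP and INSIG2 always, and the 5 genes nearest the members' mean profile. Besides these, it names at most 4 called genes of a list and comparison, those with the largest change. Some lists had called genes in comparisons that are not described, such as the isoprenoid branch between the arms at 8 h. PMVK, IDI1 and CYP51A1, MMAB and the marker genes were named after their values were seen. The 8 pathway lists held 82 genes, of which 73 were measured; the others were not analysed here. Sequences are RefSeq's on GRCh38.p14. Alternatives covered probe sets, dim genes, normalization, moderation, the samples fitted, a replicate block, a pseudocount and arrays left out.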

Additional observations from a re-analysis of the deposited data

How the results depend on the processing

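Of the 23 called changes of the 8 genes, 1 (ACAT2 between arms, mean of the 3 conditions) was called in each of the 29 alternatives other than a minimum fold. Of the 23, 18 lost the call without the arrays numbered 2, 21 without those numbered 3 and 0 without those numbered 1. Averaging probe sets could not change the values of these genes, since 0 of them had more than 1 probe set. The pseudocount and median centring each kept all 23 calls. After centring on group means, 7 of 45 same-numbered pairs correlated above 0.1 (range -0.51 to 0.26). Of 18 arrays, 0 correlated best with their own number. Within every group, the arrays numbered 2 and 3 correlated best with each other. Such correlations cannot decide whether the numbers pair samples, since a shared run could move groups in opposite directions. With the replicate block, 4 members were called for TGFβ at 8 h in siControl (HMGCS1 and INSIG1 no longer), 0 for 24 h against 8 h in siControl, 1 between arms at 8 h and 0 at 24 h; it changed no other call. Fitting only the groups compared gave 3 for TGFβ at 8 h in siControl, 4 in siPKCiz, 0 for 24 h against 8 h in siControl, and 1 and 0 between arms at 8 h and 24 h. Quantile normalization gave 2, 1 and 2 between arms untreated, at 8 h and at 24 h. Leaving out dim genes gave 2 for siPKCiz at 24 h. Requiring 1.5-fold left 1 for TGFβ at 8 h in siControl and 0 for the other 8 comparisons with calls. The cause of these shifts was not tested.

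Leaving out arrays gave 1 to 6 calls for TGFβ at 8 h and 0 to 3 at 24 h in siControl, 0 to 3 and 0 to 2 in siPKCiz, 0 to 2 for 24 h against 8 h in siControl, and 0 to 2, 0 to 5, 0 to 5 and 1 to 6 between arms (untreated, 8 h, 24 h, mean). Changes of sign were met only in values that were not called. Under quantile normalization SQLE became 0.0494 at 24 h in siControl, 0.00932 at 24 h in siPKCiz, 0.121 for 24 h against 8 h in siPKCiz, 0.0344 between arms at 24 h and -0.0294 for the interaction at 8 h; MSMO1 became 0.14 for 24 h against 8 h in siPKCiz, the ACAT2 interaction -0.00580 at 8 h and the MVK interaction 0.0526 at 24 h. Median centring gave -0.00946 for MVD, 24 h against 8 h in siPKCiz. With arrays left out, changes for 24 h against 8 h in siPKCiz ranged from -0.0127 to 0.122 (ACAT2), -0.174 to 0.141 (MSMO1), -0.0692 to 0.105 (MVD), -0.105 to 0.253 (MVK) and -0.0498 to 0.0355 (SQLE), and HMGCS1 in siControl from -0.00140 to 0.284. At 24 h against untreated, they ranged from -0.531 to 0.0720 (MSMO1, siControl), -0.214 to 0.166 (SQLE, siControl) and -0.134 to 0.0337 (SQLE, siPKCiz), and SQLE at 8 h in siPKCiz from -0.134 to 0.00278. Between arms, SQLE ranged from -0.130 to 0.218 untreated, -0.0823 to 0.0286 at 24 h and -0.0309 to 0.0963 as the mean. Interactions at 8 h ranged from -0.0459 to 0.128 (ACAT2), -0.163 to 0.177 (LSS), -0.0248 to 0.716 (MSMO1) and -0.0830 to 0.219 (SQLE), and at 24 h from -0.177 to 0.0156 (ACAT2), -0.127 to 0.0305 (HMGCS1), -0.401 to 0.333 (MSMO1), -0.171 to 0.199 (MVK) and -0.283 to 0.109 (SQLE).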
